A study of Mus musculus with 13 samples.

Results

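The MYC network is described here through 10 genes that were taken by name, as members of this family, from the 31528 genes measured in mouse blastocysts: Myc, Mycn, Mycl, Max, Mxd1, Mxd3, Mxd4, Mxi1, Mnt and Mga. All 10 had enough counts to be among the 21808 genes tested. None of the 10 passed the test in any of 9 comparisons between groups, in which between 0.0367% and 5.51% of all tested genes passed. Of 47 textbook target genes of MYC, 0 to 5 passed in a comparison, and of 20 of its cofactor and turnover genes 0 to 3. Most of these calls were lost when some single library was left out.

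MYC proteins are transcription factors that bind DNA, mostly at the E-box motif, only after pairing with MAX, and they raise the output of genes for ribosome assembly, nucleotide and polyamine synthesis and cell-cycle entry. MAX also pairs with the MXD proteins (Mxd1, Mxd3, Mxd4 and Mxi1) and with MNT, which recruit the SIN3 corepressor to the same motif, and with MGA, which brings in a Polycomb complex called PRC1.6 that keeps germline genes silent in pluripotent cells. Loss of MYC activity is known to put mouse embryonic stem cells into a dormant state that resembles embryonic diapause, the reversible arrest of the blastocyst before implantation, which is why the network is of interest in these embryos.

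Whole blastocysts on a mixed C57BL/6 and DBA2J (B6D2F1) background were sequenced in 13 libraries of 6 groups, made with a full-length cDNA kit for very small RNA inputs. The reference group was E4.5 (n = 2), wild-type blastocysts taken at embryonic day 4.5, whose mothers ate normally. The other 5 groups were collected at day 5.5. They were wild-type blastocysts after ovariectomy (OVX, n = 2), which induces diapause by removing the ovaries, after a starvation treatment (starvation, n = 2), after culture in KSOM embryo medium lacking protein and carbohydrate components (depleted KSOM, n = 2), and after culture in KSOM with less arginine, leucine, isoleucine, lysine, glucose and lactate (reduced KSOM, n = 3), together with blastocysts labelled as knockout for Nprl2 and Tsc2 by guide RNAs and also subjected to ovariectomy (targeted OVX, n = 2). Nprl2 and Tsc2 both restrain the growth kinase complex mTORC1. All treated groups were collected at a later age than E4.5, so in comparisons with E4.5 treatment cannot be told apart from age. No group was cultured in complete KSOM. The labels do not say whether replicates came from separate mothers, dishes or days, nor how many embryos were pooled, so p-values measure the spread between these libraries, which may be technical.

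Library totals ran from 40678386 to 72125687 counts. Nprl2 read 13.9 and 28.6 CPM (counts scaled to library size) in targeted OVX against 38.0 and 36.5 in OVX, and Tsc2 read 14.7 and 8.26 against 23.3 and 14.1. An edited gene can still be transcribed, so these levels do not check the label. Markers of epiblast (8 genes), primitive endoderm (8) and trophectoderm (9) were present in all libraries, with at least 6, 6 and 9 of them above 1 CPM. OVX replicate 1 and the 3 reduced KSOM libraries stood apart: all 14 skeletal muscle markers were above 1 CPM in these 4 and at most 6 in the other 9, and 14 neutrophil markers summed to 648 to 1916 CPM in the 4 against at most 143 elsewhere. Macrophage markers (8 genes) likewise summed to 248 to 420 CPM in the 4 and to at most 64.9 in the others. Erythroid markers (6 genes) did not follow this split, with sums of 379 CPM in depleted KSOM replicate 1, 353 in reduced KSOM replicate 3 and at most 83.7 elsewhere. The 8 epiblast markers summed to 337 and 304 CPM at E4.5, 173 and 210 in starvation, 162 and 135 in depleted KSOM, and between 31.9 and 96.3 in the OVX, reduced KSOM and targeted OVX libraries. In RNA from whole blastocysts, fewer cells of a type and less RNA per cell cannot be told apart.

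By comparison, the shares of all 21808 tested genes called at an adjusted p under 0.05 (edgeR) were 2.04% for OVX, 2.21% for starvation, 5.51% for depleted KSOM, 1.13% for reduced KSOM and 2.66% for targeted OVX, each against E4.5. Against OVX they were 0.0367% for targeted OVX, 0.225% for starvation, 0.679% for depleted KSOM and 0.202% for reduced KSOM. Split by direction, the shares against E4.5 were 1.56% higher and 0.481% lower in OVX, 1.68% and 0.532% in starvation, 3.29% and 2.21% in depleted KSOM, 0.77% and 0.362% in reduced KSOM, and 1.68% and 0.986% in targeted OVX. Against OVX they were 0.00459% higher and 0.0321% lower in targeted OVX, 0.078% and 0.147% in starvation, 0.289% and 0.39% in depleted KSOM, and 0.0229% and 0.179% in reduced KSOM. With 0 of 10 members called in each of the 9, the network was not above this background.

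At an unadjusted p under 0.05, 2 members passed in OVX, starvation, depleted KSOM and reduced KSOM and 1 in targeted OVX against E4.5, next to 15.8%, 16.8%, 20.9%, 15.2% and 17.6% of all genes. Against OVX the members past that level were 0 in targeted OVX (10.9% of all genes), 1 in starvation (15%), 2 in depleted KSOM (15.9%) and 2 in reduced KSOM (9.48%). The groups did not overlap for 8 of 10 members in depleted KSOM against E4.5, where 55% of all genes did not overlap, and for 5, 3, 3 and 5 members in OVX, starvation, reduced KSOM and targeted OVX (46.2%, 44.5%, 44.4% and 48.9% of all genes). Against OVX they did not overlap for 3 members in targeted OVX (32% of all genes), 3 in starvation (34.2%), 4 in depleted KSOM (42%) and 4 in reduced KSOM (30.6%).

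A single test for any difference over the 6 groups called 12.3% of all genes and no member. At an unadjusted p under 0.05 it passed 29.6% of all genes and 3 of 10 members. These were Mnt (edgeR adjusted p = 0.102), Max (0.104) and Mycn (0.126).

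**Figure D1:**
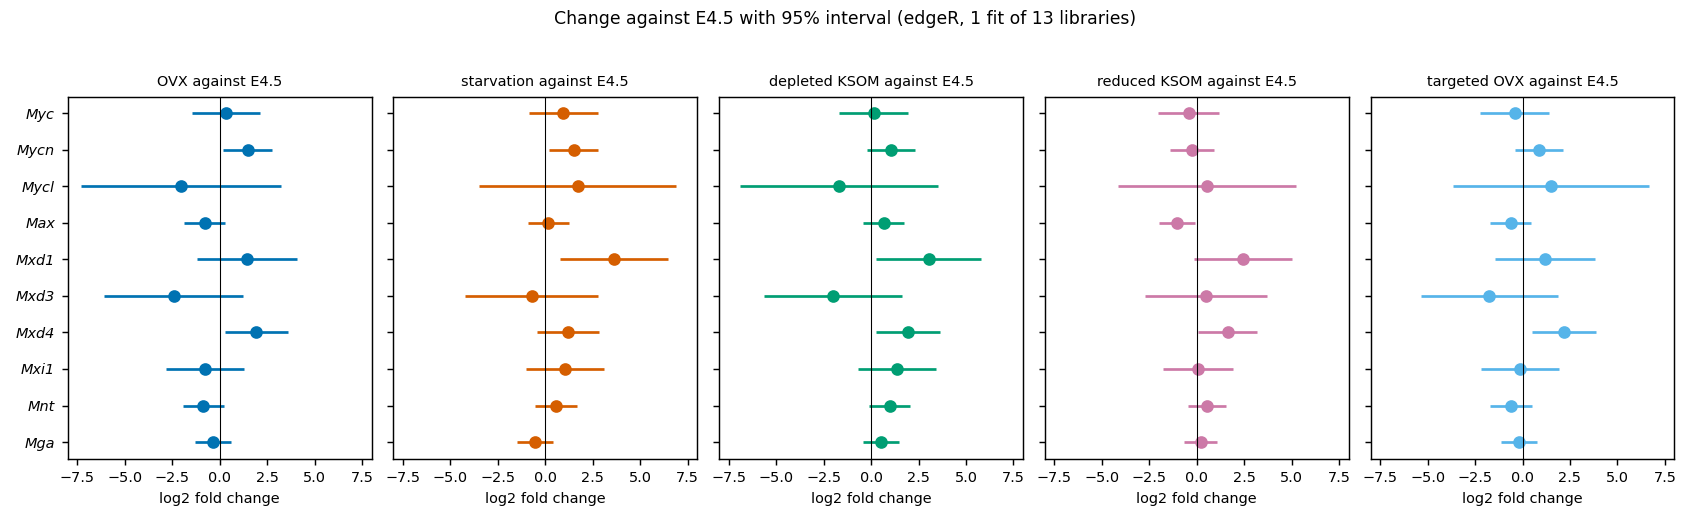
Log2 fold change against E4.5 (x axis) of the 10 genes (y axis) in each of the 5 day 5.5 groups, as points with 95% intervals from 1 edgeR fit of the 13 libraries. Intervals are widest for Mycl and Mxd3, and those of Mycn, Mxd1 and Mxd4 lie above 0 in 2 or more groups although no adjusted p is under 0.05.

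Per unit of transcript length, Mycn was the leading member. The length-scaled values deposited by the authors (FPKM) averaged 7.63 for Mycn over the 13 libraries, 5.82 for Myc, 4.49 for Max, 2.54 for Mga, 1.40 for Mnt, and below 0.9 for Mxd4, Mxd3, Mxd1, Mxi1 and Mycl. Mycn ranked first of the 10 in 10 libraries and within the top 3 in all 13, and its FPKM was above that of Myc in 10 of 13. Mga has by far the longest transcript of the set, at 4.93 times the median gene, so its high CPM does not mean a high number of transcripts. Levels below are CPM scaled by the trimmed mean of M values (TMM), which serve to compare the same gene between libraries.

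**Figure D2:**
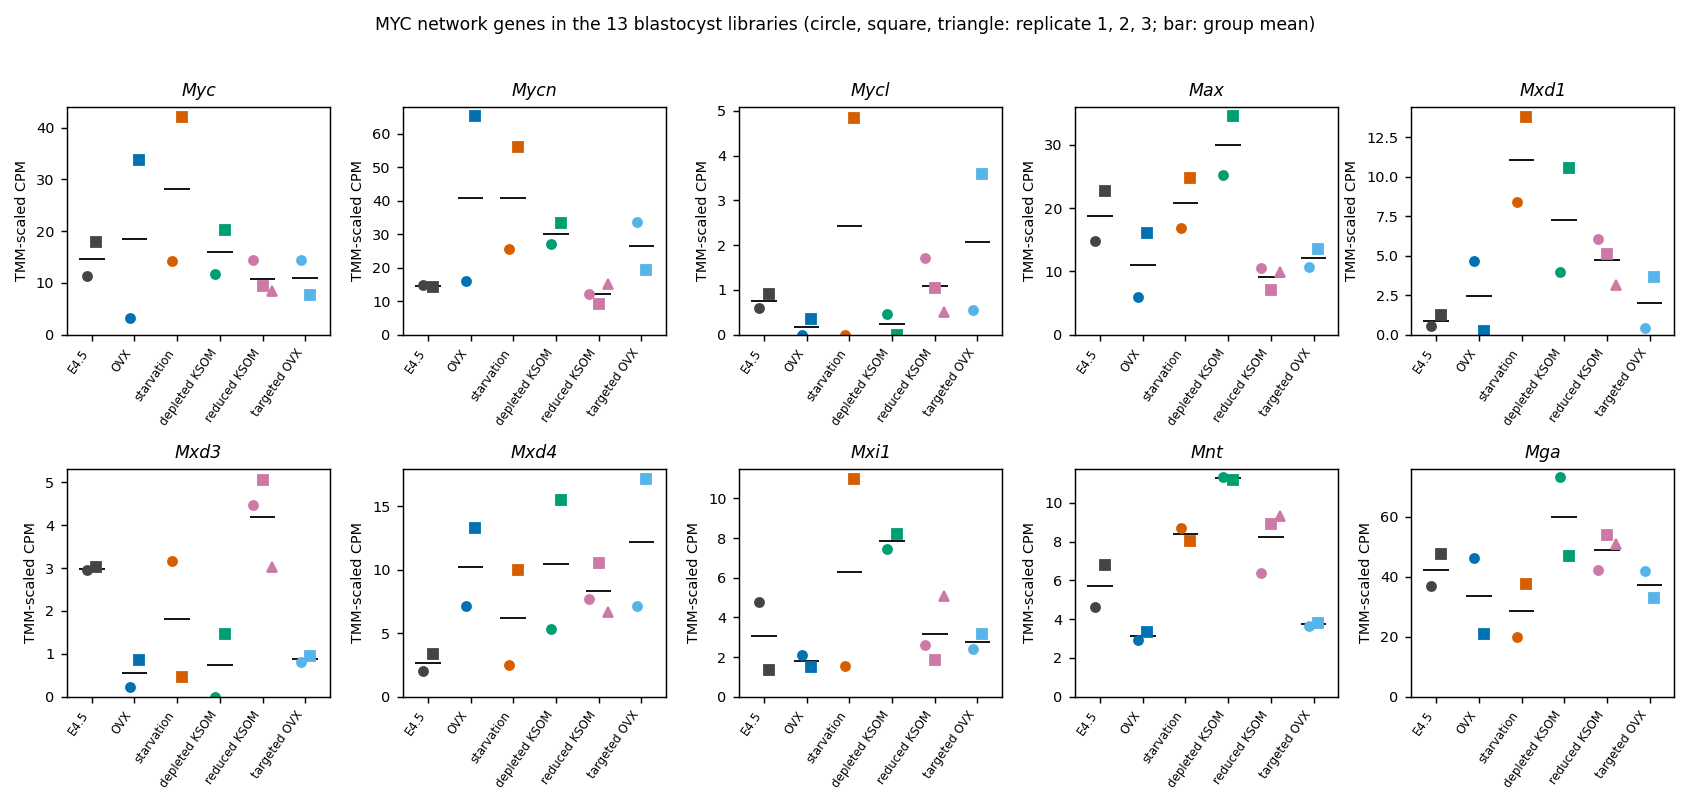
TMM-scaled CPM (y axis, linear from 0, a different range in each panel) of the 10 genes in each of 13 libraries by group (x axis), with circle, square and triangle for replicates 1, 2 and 3 and a bar at the group mean. The spread within OVX and starvation is wide for Myc and Mycn (16.1 and 65.2 for Mycn in OVX), and narrow for Mnt in depleted KSOM and targeted OVX.

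Mycn (N-Myc, the MYC gene used widely in embryonic tissues; ENSMUSG00000037169, chromosome 12, 12936093 to 12941914 on the minus strand, GRCm38) was at 14.7 and 14.3 CPM at E4.5, 16.1 and 65.2 in OVX, 25.5 and 55.9 in starvation, 27.0 and 33.3 in depleted KSOM, 12.1, 9.05 and 15.3 in reduced KSOM, and 33.7 and 19.4 in targeted OVX. It was above both E4.5 libraries in 9 of the 11 day 5.5 libraries, the 2 others being in reduced KSOM. In order of group means of TMM-scaled CPM, starvation, OVX, depleted KSOM and targeted OVX overlapped each with the next. On that scale targeted OVX lay wholly above E4.5, and E4.5 and reduced KSOM overlapped. The difference from E4.5 was 1.49 ± 0.59 (log2 ± SE) for OVX with an adjusted p of 0.242, 1.49 ± 0.59 for starvation with 0.225, and 1.06 ± 0.59 for depleted KSOM with 0.319 (edgeR quasi-likelihood test, Benjamini-Hochberg adjustment over all genes). On TMM-scaled CPM these groups did not overlap E4.5, but no difference passed the threshold of 0.05. OVX replicate 2 carries much of the OVX value: without it the log2 difference from E4.5 was 0.15, and without OVX replicate 1 it was 2.18. On TMM-scaled CPM, reduced KSOM lay wholly below OVX, by -1.75 ± 0.53 on the log2 scale (edgeR adjusted p = 0.262, unadjusted p = 0.00574). In FPKM these groups overlapped, with reduced KSOM replicate 3 at 3.44 and OVX replicate 1 at 3. They also overlapped in CPM of library totals, where the same libraries were at 12.5 and 10.8. The log2 difference was called in edgeR when low-count genes were kept (adjusted p = 0.012). That difference was -2.43 without OVX replicate 1 and -0.41 without OVX replicate 2.

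Myc (c-Myc, the founding member, induced by growth signals; ENSMUSG00000022346, chromosome 15, 61985391 to 61990350, plus strand) was at 11.3 and 17.9 CPM at E4.5, 3.14 and 33.7 in OVX, 14.2 and 42.1 in starvation, 11.7 and 20.3 in depleted KSOM, 14.4, 9.45 and 8.49 in reduced KSOM, and 14.4 and 7.58 in targeted OVX. The 2 OVX libraries were 10.8-fold apart and enclosed both E4.5 values. Each group overlapped the next in the order of means, from starvation (28.1 ± 19.7, SD) to reduced KSOM (10.8 ± 3.20). Against E4.5, the log2 difference ran from -0.43 in reduced KSOM to 0.95 in starvation, and the 95% interval for OVX, -1.46 to 2.14, covers a lower as well as a higher level. Its sign in OVX depended on the library: -2.22 without OVX replicate 2 and 1.21 without OVX replicate 1.

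Mycl (L-Myc; ENSMUSG00000028654, chromosome 4, 122995652 to 123002485, plus strand) was the scarcest member, with no count in 3 libraries (OVX replicate 1, starvation replicate 1 and depleted KSOM replicate 2), a highest level of 4.85 CPM in starvation replicate 2 and a median of 0.558. It was at 0.585 and 0.898 CPM at E4.5, 0 and 0.346 in OVX, 0 and 4.85 in starvation, 0.456 and 0 in depleted KSOM, 1.72, 1.04 and 0.495 in reduced KSOM, and 0.558 and 3.58 in targeted OVX. Its levels in depleted KSOM and in OVX did not overlap those of E4.5 and were lower, at 0.456 CPM or less against 0.585 and 0.898. Against E4.5, Mycl differed by -1.69 ± 2.40 on the log2 scale in depleted KSOM and by -2.03 ± 2.44 in OVX, with adjusted p-values of 0.746 and 0.741 (edgeR), so the standard errors were larger than the differences. Against OVX, Mycl was at 3.51 ± 2.58 in targeted OVX (edgeR adjusted p = 0.60) and 2.58 ± 2.38 in reduced KSOM (0.767), both without overlap of the groups. Without OVX replicate 2 or without depleted KSOM replicate 1, the library that remains has no Mycl count.

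Max (the shared partner; ENSMUSG00000059436, chromosome 12, 76937269 to 76962201, minus strand) was at 14.8 and 22.7 CPM at E4.5, 5.88 and 16.1 in OVX, 16.9 and 24.8 in starvation, 25.2 and 34.6 in depleted KSOM, 10.5, 7.08 and 9.93 in reduced KSOM, and 10.7 and 13.6 in targeted OVX. On TMM-scaled CPM, depleted KSOM lay above all 11 other libraries. In FPKM its replicate 1 (7.20) was below E4.5 replicate 2 (7.99) and starvation replicate 2 (7.58). All 3 reduced KSOM libraries lay below both E4.5 libraries on either scale. The log2 difference was -1.04 ± 0.45 for reduced KSOM against E4.5 (edgeR adjusted p = 0.30) and 1.44 ± 0.51 for depleted KSOM against OVX (adjusted p = 0.186). The second of these was called without OVX replicate 2 (2.35, adjusted p = 0.0466) and was 0.89 without OVX replicate 1, whose level was the lowest of all.

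Mnt (the most broadly expressed MAX-binding repressor; ENSMUSG00000000282, chromosome 11, 74830920 to 74845725, plus strand) had the closest replicates of the set, at most 1.47-fold apart within a group. It was at 4.61 and 6.78 CPM at E4.5, 2.94 and 3.33 in OVX, 8.72 and 8.02 in starvation, 11.3 and 11.2 in depleted KSOM, 6.39, 8.93 and 9.33 in reduced KSOM, and 3.65 and 3.81 in targeted OVX. All 4 libraries from ovariectomised mothers, targeted or not, were below both E4.5 libraries, and depleted KSOM was above every other library. Against OVX, Mnt was higher by 1.84 ± 0.52 on the log2 scale in depleted KSOM (3.59-fold, edgeR adjusted p = 0.108), 1.42 ± 0.51 in starvation (adjusted p = 0.221) and 1.39 ± 0.48 in reduced KSOM (adjusted p = 0.355). None of these passed in edgeR, while DESeq2, which fitted the same counts with another estimate of spread, called all 3 (adjusted p = 0.00256, 0.0274 and 0.0245). DESeq2 called far more genes of any kind in these comparisons, 1962, 1629 and 686 where edgeR called 148, 49 and 44. Against E4.5 the differences of Mnt stayed below a log2 size of 1, from -0.86 in OVX to 0.98 in depleted KSOM. The 3 contrasts share the same 2 OVX libraries.

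Mxd4 (an MXD repressor found in differentiating cells; ENSMUSG00000037235, chromosome 5, 34173883 to 34187710, minus strand) was at 2.02 and 3.38 CPM at E4.5, 7.16 and 13.3 in OVX, 2.49 and 9.97 in starvation, 5.36 and 15.5 in depleted KSOM, 7.69, 10.6 and 6.70 in reduced KSOM, and 7.18 and 17.2 in targeted OVX. It was above both E4.5 libraries in 10 of 11 day 5.5 libraries, the exception being starvation replicate 1. The log2 differences from E4.5 were 2.17 ± 0.78 in targeted OVX (4.52-fold, edgeR adjusted p = 0.16), 1.95 ± 0.77 in depleted KSOM (0.171), 1.92 ± 0.77 in OVX (0.244) and 1.62 ± 0.72 in reduced KSOM (0.31), all 4 with groups that did not overlap. Of these, DESeq2 called targeted OVX (adjusted p = 0.0324), where it called 2567 genes in all and edgeR 581. The 4 comparisons share the same 2 E4.5 libraries. An antisense transcript overlaps the 3′ end of Mxd4, and the library kit does not mark strand, so its reads cannot be told apart from those of Mxd4.

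Mxd1 (Mad1, induced as myeloid and epithelial cells mature; ENSMUSG00000001156, chromosome 6, 86647042 to 86669161, minus strand) was at 0.531 and 1.25 CPM at E4.5, 4.64 and 0.223 in OVX, 8.38 and 13.8 in starvation, 3.99 and 10.5 in depleted KSOM, 6.04, 5.08 and 3.12 in reduced KSOM, and 0.406 and 3.64 in targeted OVX. Starvation, depleted KSOM and reduced KSOM lay wholly above E4.5, while the 2 OVX libraries enclosed it. The log2 differences from E4.5 were 3.64 ± 1.31 in starvation (12.4-fold, edgeR adjusted p = 0.178), 3.03 ± 1.28 in depleted KSOM (0.201) and 2.42 ± 1.19 in reduced KSOM (0.356). The starvation difference was called by DESeq2 (adjusted p = 0.0218), by limma on log2 of the FPKM plus 1 (1.18, adjusted p = 0.0368) and in edgeR without the filter on low counts (adjusted p = 0.0125). The depleted KSOM difference was called in the last of these (0.0351). In starvation against E4.5, DESeq2 called 2255 genes in all and edgeR 483. Neutrophil markers summed to 1.64 and 13 CPM in the starvation libraries and 8.91 and 6.93 in depleted KSOM, but to 648 in OVX replicate 1 and 1381 to 1916 in reduced KSOM. Macrophage markers, also myeloid, summed to at most 16 CPM in starvation and depleted KSOM. The part of either in the Mxd1 level of these 4 libraries was not tested. Without OVX replicate 1 and the reduced KSOM libraries, Mxd1 in OVX was -2.05 against E4.5 on the log2 scale, in place of 1.44 with them. Starvation lay wholly above OVX, by 2.20 ± 1.24 (edgeR adjusted p = 0.408), a difference of Mxd1 that was 5.65 without those 4 libraries (adjusted p = 0.509).

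Mxd3 (the MXD gene tied to dividing cells; ENSMUSG00000021485, chromosome 13, 55325168 to 55329758, minus strand) was at 2.95 and 3.03 CPM at E4.5, 0.229 and 0.866 in OVX, 3.16 and 0.459 in starvation, 0 and 1.47 in depleted KSOM, 4.47, 5.06 and 3.02 in reduced KSOM, and 0.812 and 0.959 in targeted OVX. OVX, depleted KSOM and targeted OVX lay wholly below E4.5, by -2.43 ± 1.70, -2.02 ± 1.67 and -1.75 ± 1.66 on the log2 scale (edgeR adjusted p = 0.49, 0.503 and 0.598). Reduced KSOM lay wholly above OVX, by 2.91 ± 1.67 (adjusted p = 0.586). The call of Mxd3 in depleted KSOM without replicate 2 (adjusted p = 0.0496) compares E4.5 with a lone library at 0 counts. The 3′ end of Mxd3 overlaps Prelid1 on the opposite strand, a gene with up to 29758 counts in a library, and since strand was not marked the 2 cannot be told apart there.

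Mxi1 (Mxd2, another SIN3-dependent MAX partner; ENSMUSG00000025025, chromosome 19, 53310518 to 53375810, plus strand) was at 4.77 and 1.35 CPM at E4.5, 2.12 and 1.51 in OVX, 1.53 and 11.0 in starvation, 7.47 and 8.23 in depleted KSOM, 2.62, 1.87 and 5.06 in reduced KSOM, and 2.38 and 3.16 in targeted OVX. Depleted KSOM had the 2 highest values but for starvation replicate 2. It differed from OVX by 2.11 ± 0.98 (edgeR adjusted p = 0.315) and from E4.5 by 1.36 ± 0.95 (adjusted p = 0.414), with groups that did not overlap in either comparison. The gene Gm10197 overlaps an exon of Mxi1 on the opposite strand, and reads there cannot be told apart.

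Mga (the large dual-domain MAX partner in PRC1.6; ENSMUSG00000033943, chromosome 2, 119897228 to 119969581, plus strand) was at 36.9 and 47.5 CPM at E4.5, 46.1 and 21.0 in OVX, 19.8 and 37.5 in starvation, 73.3 and 46.8 in depleted KSOM, 42.1, 54.0 and 51.1 in reduced KSOM, and 41.9 and 32.8 in targeted OVX. No log2 difference from E4.5 reached 1 in size (-0.56 in starvation to 0.51 in depleted KSOM), and each group overlapped the next in the order of means. Across libraries, the correlation of gene abundance with gene length ran from -0.30 to 0.31, and Mga is at the 98.5th percentile of length, so its CPM carries such differences between libraries; their part was not tested for Mga alone.

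The balance between activators and repressors was compared within libraries, which does not depend on scaling. It can still carry differences between libraries in the correlation of abundance with gene length, which ran from -0.30 to 0.31. Length percentiles were 44.3, 52.5 and 62.0 for Myc, Mycn and Mycl. Those of the antagonists were 84.7 for Mxd1, 39.4 for Mxd3, 90.0 for Mxd4, 83.7 for Mxi1 and 67.7 for Mnt. The part of length in these shares was not tested. Myc, Mycn and Mycl made up 73.0% and 76.0% of the summed FPKM of the MYC genes and the 5 antagonists (Mxd1, Mxd3, Mxd4, Mxi1 and Mnt) at E4.5, 70.4% and 91.8% in OVX, 72.6% and 83.5% in starvation, 72.7% and 69.9% in depleted KSOM, 63.5%, 50.7% and 60.0% in reduced KSOM, and 86.8% and 69.2% in targeted OVX. MYC genes made up more than their antagonists in all 13 libraries. Their share in reduced KSOM (58.0% ± 6.64, SD, n = 3) lay below all 10 other libraries, of which the lowest was 69.2%. In that group the MYC genes summed to 5.39 to 7.10 FPKM against 10.4 and 14.1 at E4.5, and the antagonists to 3.90 to 5.25 against 3.87 and 4.43. An exact permutation test was not run on this share, which was formed from the members after their levels were known. These are 3 of the 4 libraries with muscle and neutrophil transcripts.

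**Figure D3:**
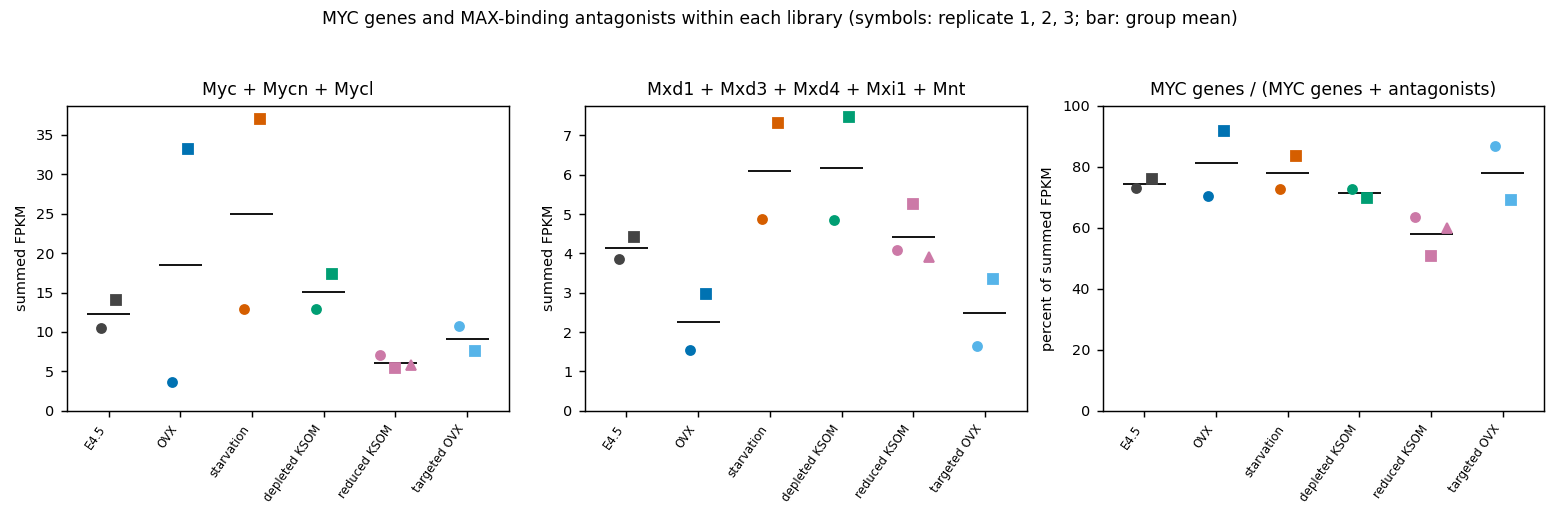
Summed FPKM of the 3 MYC genes (left) and of the 5 MAX-binding antagonists (middle), and the MYC genes as a percentage of both together (right), on the y axes from 0, in each library by group (x axis); symbols are replicates and bars are group means. The 3 reduced KSOM libraries lie at 50.7% to 63.5%, below the other 10.

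The makeup of the antagonists' FPKM also differed between groups. At E4.5, Mxd3 made up 38.2% and 36.3%, Mnt 30.7% and 41.8%, Mxd4 7.24% and 11.3%, and Mxd1 2.33% and 4.97%. In OVX and targeted OVX, Mxd3 made up 3.23% to 14.0% and Mxd4 33.5% to 54.0%, and Mxd4 was the largest share in all 4 libraries. In starvation Mxd1 made up 24.2% and 29.3%, above E4.5 in both libraries, but Mnt (38.4%) and Mxd3 (26.9%) were larger in replicate 1. Mnt was the largest share in both depleted KSOM libraries, at 51.6% and 32.0%. In reduced KSOM, Mxd3 made up 23.8% to 34.8% and Mnt 25.7% to 38.5%. Among the MYC genes, Mycn made up 51.0% and 38.9% at E4.5 and 61.3% to 81.3% in OVX and targeted OVX, which did not overlap. Its share in depleted KSOM, 65.1% and 57.6%, was also wholly above E4.5. In starvation it was 59.8% and 50.5%, and in reduced KSOM 39.0% to 58.9%, both overlapping E4.5. These shares are ratios of the same FPKM, so a low share of a gene can come from a rise of another. Mxd3, Mxd4 and Mxi1 each overlap a gene on the opposite strand, for Mxd3 Prelid1 with up to 29758 counts in a library. Their shares, and the antagonist sums above, may include reads of those genes.

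As a description over the 13 libraries, which share their amplification and scaling, log2 CPM of Myc correlated with that of Mycn (Pearson's r = 0.67) and of Max (r = 0.69), and Mxd1 with Mnt (r = 0.61), whereas Myc and Mga had r = -0.34. Among 5214 or 5215 well-expressed genes, those most like Mycn were Gm6169 (r = 0.95), Plp2 (r = 0.94) and Gprc5a (r = 0.91). Those most like Myc were N4bp2 (r = 0.88), Nsmce3 (r = 0.86) and Cyhr1 (r = 0.86), and those most like Max included Rnf4 and Cdk2 (r = 0.91 each). These are the highest of many candidates, so large values arise by selection. Mycl was too scarce for this comparison.

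MYC and MAX bind the E-box CACGTG, so the promoters of the members were searched for it. Windows of 300 bases, from 250 before to 50 after the start site, were taken from RefSeq (GRCm38.p6), which had an entry for 9 of the 10 members. This palindrome reads the same on both strands. Of these 9 genes 3 held it, Max, Mxd4 and Mnt (33.3%), against 2187 of 27025 genes in all (8.1%). The 30 bases around each match, 5′ to 3′ on the gene's strand with the E-box in capitals, are at chr12:76962234-76962263, chr5:34187912-34187941 and chr11:74830789-74830818.
Max: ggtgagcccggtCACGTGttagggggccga
Mxd4: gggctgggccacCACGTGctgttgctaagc
Mnt: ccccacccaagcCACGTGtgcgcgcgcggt
The motif begins 3 bases before the start site in Max, 219 before in Mxd4 and 123 before in Mnt. Of these 3 genes, Max and Mnt were lowest in OVX replicate 1 and Mxd4 in E4.5 replicate 1. By list, the motif was in 11 of 41 textbook MYC targets with an entry (26.8%) and in 9 of 17 germline genes repressed by PRC1.6 (52.9%). It was in 1 of 18 cofactor and turnover genes (5.6%), 1 of 10 SIN3 genes (10%), 1 of 11 PRC1.6 genes (9.1%), 1 of 5 genes repressed by MYC (20%) and 2 of 3 MLX arm genes (66.7%). A match is a description of the sequence and not evidence that the site is bound.

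Downstream of the network, 47 of 48 textbook MYC target genes were tested. In depleted KSOM 5 of the 47 fell against E4.5 and none rose, where 2.21% of all genes were called lower and 3.29% higher. The list median was -0.25 on the log2 scale against -0.09 for all genes. Odc1, which makes the first enzyme of polyamine synthesis, was at 447 and 411 CPM at E4.5 and at 84.0 and 72.4 in depleted KSOM, 5.48-fold lower (-2.46 ± 0.35, edgeR adjusted p = 0.00289). Mcm5, a subunit of the replicative helicase, was at 139 and 135 against 11.1 and 18.4, or 9.31-fold lower (adjusted p = 0.00311). Fbl, the rRNA methyltransferase of the nucleolus, was at 141 and 123 against 23.6 and 27.7, or 5.14-fold lower (adjusted p = 0.00545). These 3 calls held without each of the 4 libraries compared in turn and under each other setting tried. Nolc1 and Ncl, a pair of nucleolar proteins named beyond the rule because the count is small, fell by 1.37 and 1.23 on the log2 scale (adjusted p = 0.0367 and 0.0466). Both lost the call without any 1 of the 4 libraries (adjusted p from 0.153 to 0.227 and from 0.158 to 0.278).

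Odc1 fell in 4 of the 5 day 5.5 groups. It was at 75.7 and 133 CPM in OVX (4.12-fold lower than E4.5, adjusted p = 0.0116), 109, 126 and 133 in reduced KSOM (3.50-fold, adjusted p = 0.0178) and 181 and 123 in targeted OVX (2.82-fold, adjusted p = 0.0358), all by edgeR. In starvation it was at 174 and 211, a log2 difference of -1.16 ± 0.33 (adjusted p = 0.0922) that did not pass. All 11 day 5.5 libraries lay below both E4.5 libraries. Outside depleted KSOM these calls of Odc1 were sensitive to single libraries. The OVX call did not hold without E4.5 replicate 1 (adjusted p = 0.052), without OVX replicate 1 (0.0558) and without all 4 libraries with muscle and neutrophil transcripts (-1.75, against -2.04 with them, adjusted p = 0.158). The call in reduced KSOM was lost without any 1 of its 5 libraries (0.0718 to 0.095). That in targeted OVX was lost without any but targeted OVX replicate 1 (0.154 to 0.236).

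**Figure D4:**
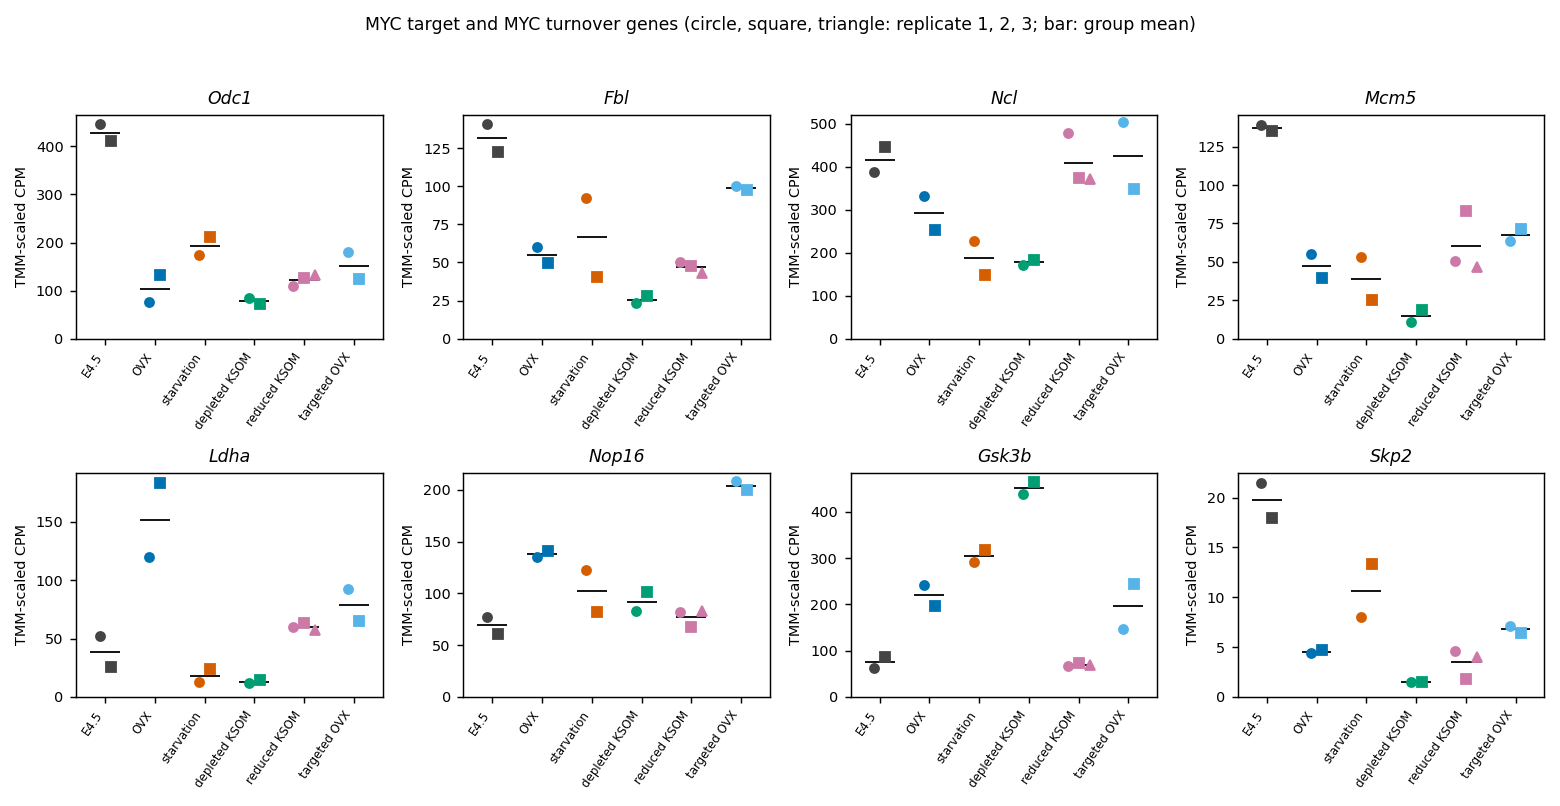
TMM-scaled CPM (y axis, linear from 0, a different range in each panel) of 6 textbook MYC targets and the MYC turnover genes Gsk3b and Skp2 in each library by group (x axis); symbols are replicates and bars are group means. All 11 day 5.5 libraries lie below both E4.5 libraries for Odc1, and the 2 depleted KSOM libraries are the lowest for Fbl, Mcm5 and Skp2 and the highest for Gsk3b.

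Fewer targets passed in OVX, starvation and reduced KSOM. Fbl fell in reduced KSOM as well (50.2, 47.5 and 43.1 CPM, 2.81-fold lower than E4.5, edgeR adjusted p = 0.0497), 2 of 47 targets in that group, a call lost without any 1 of its libraries (0.151 to 0.266). Of all genes, 0.362% were called lower in reduced KSOM. In OVX, 2 of 47 fell and 1 rose, next to 0.481% and 1.56% of all genes. Hspd1, a mitochondrial chaperonin, fell by 1.26 on the log2 scale (adjusted p = 0.039). Ldha, which interconverts pyruvate and lactate, was at 120 and 183 CPM against 52.3 and 25.2 at E4.5 (1.97 ± 0.43 on the log2 scale, adjusted p = 0.039). The call of Hspd1 was lost without any 1 of the 4 libraries (0.0914 to 0.242), and that of Ldha without any but OVX replicate 1 (0.051 to 0.298). With library totals as scaling, the split in OVX was 0 higher and 4 lower (Fbl, Hspd1, Mcm5 and Odc1), and Ldha had an adjusted p of 0.18. That scaling gave 0 higher and 4 lower targets in reduced KSOM and 0 higher and 7 lower in depleted KSOM. In starvation no target passed against E4.5 (0 of 47), under either scaling. The list medians were -0.08 in OVX, -0.12 in starvation and 0.04 in reduced KSOM, next to 0, 0 and 0.15 for all genes.

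In targeted OVX, 4 of 47 targets rose against E4.5 and Odc1 fell, where 1.68% of all genes were called higher and 0.986% lower. Eif2s1, the alpha subunit of the initiation factor that delivers the first tRNA, was at 552 and 560 CPM against 192 and 174 (3.04-fold, edgeR adjusted p = 0.0115). Nop16 and Mrto4, which act in assembly of the large ribosomal subunit, were 2.96-fold and 3.43-fold higher (adjusted p = 0.0212 and 0.024). Ran, the GTPase of nuclear transport, named beyond the rule, was 2.74-fold higher (adjusted p = 0.0456). These rises depend on the scaling. With library totals in place of TMM, none of the 4 was called and 3 targets fell (Hspd1, Nolc1 and Odc1). The median of all genes in this comparison moved by -0.76 on the log2 scale. Eif2s1, Nop16 and Mrto4 each also lost the call without either E4.5 library or targeted OVX replicate 2 (adjusted p from 0.0516 to 0.254), and Ran without any 1 of the 4 libraries (0.0757 to 0.334). Against OVX, 0 of 47 targets differed in targeted OVX (list median 0.40, all genes -0.09), and the list median against E4.5 was 0.32 where that of all genes was -0.16.

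Ldha was the 1 target called in any comparison with OVX. It was at 12.3 and 23.8 CPM in starvation and 12 and 14.2 in depleted KSOM. All 4 lay below the 120 and 183 of OVX. The log2 differences were -3.07 ± 0.45 (8.41-fold, edgeR adjusted p = 0.0267) and -3.53 ± 0.46 (11.6-fold, adjusted p = 0.0104). The starvation call was lost without OVX replicate 1 and the reduced KSOM libraries (-3.32, adjusted p = 0.0899) and with library totals as scaling (0.0634), and the second lost its call without depleted KSOM replicate 1 (0.0512). Over the 6 groups as a whole, 16 of 47 targets varied, where 12.3% of all genes did. The targets called in single comparisons were abundant, with mean log2 CPM from 5.44 (Ldha) to 9.60 (Ran), while all genes include scarce ones. No share was taken over genes of like abundance, so an excess of targets was not tested. Several targets, such as Ran, Ldha and Hspd1, have processed pseudogenes, and how reads shared between copies were counted is not given in the sources used here.

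Of 20 cofactor and turnover genes, Gsk3b, the kinase that marks MYC for destruction, rose against E4.5 in 4 of 5 groups. It was at 63.2 and 85.4 CPM at E4.5, 439 and 464 in depleted KSOM (6.07-fold, edgeR adjusted p = 0.00215), 292 and 317 in starvation (4.09-fold, adjusted p = 0.00989), 242 and 197 in OVX (2.95-fold, adjusted p = 0.0277) and 147 and 244 in targeted OVX (2.63-fold, adjusted p = 0.0354). In reduced KSOM it was at 67.3, 72.4 and 67.9 CPM, inside the E4.5 range. This was lower than in OVX by 1.66 on the log2 scale (3.17-fold, adjusted p = 0.0322), so the difference between these effects was itself tested. The call in depleted KSOM held without each library and under each other setting. The others of Gsk3b were lost in starvation without E4.5 replicate 1 (0.126). In OVX the call was lost without any but OVX replicate 2 (0.0834 to 0.253). It was lost in targeted OVX without any but targeted OVX replicate 1 (0.168 to 0.279), and in reduced KSOM against OVX without any 1 reduced KSOM library (0.17 to 0.204). With library totals as scaling the calls in OVX and targeted OVX were lost too (adjusted p = 0.227 and 0.284), as was that in reduced KSOM against OVX (0.0755). Without the 4 libraries with muscle and neutrophil transcripts, the OVX value of Gsk3b was 1.34 on the log2 scale, next to 1.56 with them, with an adjusted p of 0.271.

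Skp2, a ubiquitin ligase subunit that both degrades and activates MYC, fell from 21.5 and 18 CPM at E4.5 to 1.48 and 1.47 in depleted KSOM (13.4-fold, edgeR adjusted p = 0.00601). That call held without each library. In reduced KSOM it was at 4.57, 1.78 and 3.99 CPM (5.73-fold, adjusted p = 0.0357), a call lost without any 1 of its 5 libraries (0.105 to 0.246). Against E4.5, 2, 2, 3, 1 and 1 of the 20 genes were called in OVX, starvation, depleted KSOM, reduced KSOM and targeted OVX. The shares of all genes were 2.04%, 2.21%, 5.51%, 1.13% and 2.66%. The other calls in this list were few. Ruvbl2, an ATPase of MYC-bound chromatin complexes, was lower in depleted KSOM (3.77-fold, 0.0301). Wdr5, a scaffold that MYC binds on chromatin, was lower in OVX (2.93-fold, 0.0483). Trrap, a scaffold of histone acetyltransferases recruited by MYC, was lower in starvation (2.80-fold, 0.0479). Wdr5 and Trrap lost the call without any 1 of their 4 libraries (0.0512 to 0.318 and 0.0908 to 0.41), and Ruvbl2 without any but E4.5 replicate 2 (0.0848 to 0.191). The list medians were -0.53, 0.07, -0.32, -0.55 and -0.24 in OVX, starvation, depleted KSOM, reduced KSOM and targeted OVX.

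On the repressor side, 1 of 12 SIN3 corepressor genes passed: Rbbp7, a histone-binding subunit, rose 2.83-fold in depleted KSOM against E4.5 (edgeR adjusted p = 0.0354), a call lost without any 1 of the 4 libraries (0.0653 to 0.253). With 5.51% of all genes called in that comparison, 1 of 12 is near the background. Of 14 PRC1.6 genes, Yaf2, which binds the RING1 subunits, rose 3.92-fold in depleted KSOM (adjusted p = 0.0406). Tfdp2, a partner of E2F6, rose 2.63-fold there and 2.95-fold in starvation (0.0464 and 0.0493). Wdr5, which is also in the list of cofactor and turnover genes, fell in OVX. That made 2 of 14 in depleted KSOM, 1 in starvation and 1 in OVX, next to 5.51%, 2.21% and 2.04% of all genes. These calls of Yaf2 and Tfdp2 were lost without any 1 library as well (from 0.0552 upward). In the remaining comparisons, no gene of either list passed.

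Of 18 germline genes that PRC1.6 represses in embryonic stem cells, 17 were tested and 1 was called, in depleted KSOM against E4.5 and against OVX. Of all genes, 5.51% and 0.679% were called there, so 1 of 17 against E4.5 is near the background. Smc1b, the meiotic cohesin subunit, was at 5.89 and 3 CPM at E4.5, 4.71 and 4.07 in OVX, 0.963 and 1.39 in starvation, 26.0, 22.8 and 14.5 in reduced KSOM and 0.812 and 0.733 in targeted OVX. It had no count in either depleted KSOM library. Against a floor of 3 counts per library, it was at least 115-fold lower there than at E4.5 and at least 113-fold lower than in OVX (edgeR adjusted p = 0.000866 and 0.00304), and both calls held without each library compared. The call against OVX was lost without the 4 libraries with muscle and neutrophil transcripts (0.0781), in limma on log2 of FPKM plus 1 (0.201) and with the compared groups alone (0.224). The median of the list ran from -1.91 in starvation to 0.53 in reduced KSOM against E4.5, and includes such scarce genes.

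Of 7 genes that MYC is known to repress, Ndrg1, a stress- and hypoxia-induced gene, rose 7.03-fold in depleted KSOM (edgeR adjusted p = 0.0192), from 107 and 236 CPM at E4.5 to 1440 and 973. Leaving out E4.5 replicate 1 ended this call (0.104), as did leaving out depleted KSOM replicate 1 (0.0616) and scaling by library totals (0.0523). Cdkn1c, a cyclin-dependent kinase inhibitor, had no count in depleted KSOM and was at least 58.9-fold lower than its 2.54 and 2.03 CPM at E4.5 (edgeR adjusted p = 0.0307). This call was lost without either depleted KSOM library and in limma on log2 of FPKM plus 1 (-1.23, adjusted p = 0.253). None of the 3 genes of the neighbouring MLX arm passed in any comparison. Of these, Mlx, the MAX-like partner, was at 18.7 ± 2.26 CPM at E4.5 (SD, n = 2), and Mlxip, its nutrient-sensing partner, was at 18.3 ± 0.15 CPM at E4.5 and 7.32 ± 0.60 in OVX (-1.33 ± 0.43 on the log2 scale, adjusted p = 0.143).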

How the data were processed

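RNA-seq libraries were made from cDNA that was amplified at full length and then fragmented, with no mark of strand and no molecular identifiers, per the labels' protocols. The authors deposited, per gene on GRCm38, an estimated count (all values are whole numbers) and FPKM, which they computed; cutadapt 1.9, HISAT2 2.0.4 and StringTie 1.3.4d are named in the submitters' processing notes, while the annotation and the counting tool are not given in the sources used here. Each of the 13 libraries was placed in 1 of 6 groups by its title.

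Counts were tested in edgeR 4.0.16 (filterByExpr, TMM, glmQLFit and glmQLFTest, 1 fit of 13 libraries with a mean per group, 7 residual degrees of freedom); genes with a Benjamini-Hochberg adjusted p under 0.05 over 21808 genes were called. The code was tested on simulated data. TMM factors ran from 0.671 to 1.414, and edgeR's common dispersion corresponds to a biological coefficient of variation of 0.896. Fold changes are given with standard errors and 95% intervals. Log2 CPM in correlations has a prior count of 2. A group with no count was set to 3 counts per library to give a bound, which covers counting error only. Marker sums are CPM of library totals.

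The 10 genes were taken by name and no rule on their values was applied, but they, the gene lists and the comparisons were chosen with earlier results of these data known. Members are named throughout. A fold change with its test is given where a member was called, or differed by at least 1 on the log2 scale with groups that did not overlap on TMM-scaled CPM (27 pairs of member and comparison). Some others are given as ranges. Up to 3 called genes per list and comparison are named by adjusted p. Alternatives were median-of-ratios scaling, library totals, DESeq2 1.42.0, limma 3.58.1 on log2 of FPKM plus 1, no low-count filter, a mean of at least 5 CPM, replicate number as a block, counts divided by 4 (27.2% to 34.6% of low counts are multiples of 4), an offset for gene length, the compared groups alone, and each library left out. Leaving out the 4 libraries with muscle and neutrophil transcripts was added after the data were seen. Where a left-out library leaves 1 in a group, that library is assumed to vary like the other groups. Work was done in R 4.3.3, with figures in matplotlib 3.10.9. A gene among those most like Max is not reported here.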

Additional observations from a re-analysis of the deposited data

Results flagged for a closer look

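For 3 genes the change against E4.5 differed between day 5.5 groups by a direct test of the difference (edgeR quasi-likelihood test, adjusted over all genes). Gsk3b was lower in reduced KSOM than in OVX by -1.66 on the log2 scale (adjusted p = 0.0322), with all 3 reduced KSOM libraries below both OVX libraries. Ldha was lower than in OVX by -3.07 in starvation (adjusted p = 0.0267) and by -3.53 in depleted KSOM (adjusted p = 0.0104), in 2 of 2 libraries each. Smc1b, without a count in depleted KSOM, was at least 113-fold lower there than in OVX (adjusted p = 0.00304). These tests share the 2 OVX libraries. None of these calls held with the compared groups alone (edgeR adjusted p = 0.0758 for Gsk3b, 0.577 and 0.166 for Ldha in starvation and depleted KSOM, and 0.224 for Smc1b). That of Gsk3b was also lost without any 1 reduced KSOM library.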

How the results depend on the processing

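No member was called in any comparison under median-of-ratios scaling, library totals, a mean of at least 5 CPM, counts divided by 4, the length offset, the compared groups alone, or without the 4 libraries with muscle and neutrophil transcripts. DESeq2 called 1 member (Mxd1) in starvation and 1 (Mxd4) in targeted OVX against E4.5, 1 (Mnt) in each of starvation, depleted KSOM and reduced KSOM against OVX, and 3 (Max, Mnt and Mycn) over the 6 groups. Of all 21808 genes it called 2255 in starvation and 2567 in targeted OVX against E4.5. Against OVX it called 1629 in starvation, 1962 in depleted KSOM and 686 in reduced KSOM, and over the 6 groups 6538. Limma called 1 (Mxd1) in starvation against E4.5. Without the low-count filter there was 1 call (Mxd1) in each of starvation and depleted KSOM against E4.5, 1 (Mycn) in reduced KSOM against OVX, and 3 (Max, Mxd1 and Mycn) over the 6 groups. Leaving out single libraries gave 0 to 1 members in depleted KSOM against E4.5 (Mxd3, without depleted KSOM replicate 2), 0 to 1 in depleted KSOM against OVX (Max, without OVX replicate 2), 0 to 1 in reduced KSOM against OVX (Mycn, without OVX replicate 1), and 0 to 2 over the 6 groups. The causes of these shifts were not tested.

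Of the 27 member fold changes of at least 1 on the log2 scale with groups that did not overlap, 0 changed direction under the settings that applied to them, out of 24. Groups that do not overlap keep their order when a library is left out at the same scaling. For the settings that leave out libraries this result was therefore largely fixed in advance and is no measure of stability. Outside the 27, Myc in OVX against E4.5 went from 0.34 to -2.22 without OVX replicate 2, and Mxd1 there from 1.44 to -1.98 without OVX replicate 1. Of the 35 calls of other network genes, 0 changed direction, and 184 of 524 refits lost the call. No pairing by replicate number was seen in 30 same-number pairs (correlation of deviations from -0.06 to 0.07). Between groups of 2 libraries, replicates 1 and 2 give the same correlation, so these values are not all separate. With the replicate block, 0 members were called in each comparison.

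Calls over all genes depended on the method. The lowest and highest counts were 0 (compared groups alone) and 2010 (DESeq2) for OVX against E4.5 in place of 445, 0 and 2255 for starvation (483), 378 and 3264 for depleted KSOM (1201), 9 and 2462 for reduced KSOM (247) and 0 and 2567 for targeted OVX (581). Against OVX they were 0 and 880 for targeted OVX (8), 0 and 1629 for starvation (49), 0 and 1962 for depleted KSOM (148) and 0 and 686 for reduced KSOM (44), and over the 6 groups 1209 and 6538 (2672). With library totals as scaling, the share of calls that were higher moved from 76.4% to 32.1% in OVX, 76% to 49.1% in starvation, 59.8% to 27.9% in depleted KSOM, 68% to 15% in reduced KSOM and 63% to 14.1% in targeted OVX against E4.5. In the same order the median of all genes shifted by -0.53, -0.17, -0.32, -0.65 and -0.76 on the log2 scale; in reduced KSOM this turned the direction of 5 members below a log2 size of 1 (Mycl, Mxd3, Mxi1, Mnt and Mga). With 2 or 3 libraries per group, the median standard error of a member's log2 difference from E4.5 was 0.74 to 0.80, so changes of the size seen here were not resolved.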
